A study of Homo sapiens with 6 samples.

Results

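The KDM6 and KDM7 lysine demethylases and their JmjC relatives were described as 9 genes: KDM6A, KDM6B, KDM7A, PHF2, PHF8, KDM8, RIOX1, RIOX2 and JMJD6. Members were taken by gene symbol from the probe sets to which the platform annotation gives exactly 1 symbol, and a gene with several such probe sets was represented by the one with the highest mean. All 9 were measured, out of 18417 named genes. RNA came from WM164, a BRAF-mutant human melanoma cell line from a lymph node metastasis, grown in RPMI medium with serum. Parent cells (3 arrays) received the vehicle DMSO, and cells labelled IDTC, for induced drug tolerant cells, were kept in 500 nM PLX4032 for 16 days (3 arrays). PLX4032 is vemurafenib, an inhibitor of mutant BRAF. How long the DMSO cells were cultured is not stated in the labels, so time in culture cannot be told apart from treatment. Per the series text, each condition was cultured in triplicate and each sample's RNA was isolated independently. Separate experiments are not named, so the spread behind every p-value is that of these samples and may be partly technical.

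JmjC proteins are oxygenases that hold iron and use 2-oxoglutarate and oxygen. In the KDM6 proteins this reaction removes methyl groups from lysine 27 of histone H3, a mark laid down by Polycomb repressive complex 2 (PRC2) that silences developmental genes. In the KDM7 group (KDM7A, PHF2 and PHF8) a PHD finger binds methylated lysine 4 of histone H3 at active promoters, beside a JmjC domain that acts on repressive methyl marks such as dimethylated lysine 9. KDM8, RIOX1, RIOX2 and JMJD6 are small JmjC proteins that are best established as hydroxylases of protein side chains, and histone demethylation by them is disputed. Slow-cycling and drug-tolerant melanoma cells are known for altered histone methylation. The arrays measured RNA only, so neither the enzymes' activity nor a histone mark was measured.

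Transcripts of the lysine demethylases rose in IDTC cells in 4 of 5 cases, and those of the hydroxylase members fell in 3 of 4. Of all genes, 21.7% rose and 24.9% fell. KDM7A rose by 0.74 ± 0.11 on the log2 scale, PHF2 by 0.69 ± 0.07, KDM6A by 0.56 ± 0.10 and KDM6B by 0.28 ± 0.06, where the error is the standard error of the fit and n = 3 arrays per group. JMJD6 fell by 0.88 ± 0.05, RIOX1 fell by 0.45 ± 0.09 and RIOX2 fell by 0.37 ± 0.06. PHF8 and KDM8 were not called. The words rose and fell are used for genes with a Benjamini-Hochberg adjusted p under 0.05 in limma over all 18417 genes, with the direction IDTC minus Parent.

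Of the 9 members 7 were called (77.8%), where 46.6% of all genes were called. In the separate directions 4 members were higher, against 21.7% of all genes, and 3 were lower, against 24.9%. None was called at 2-fold or more, against 9.21% of all genes. The groups of 3 arrays did not overlap for 8 of the 9 members, against 54.1% of all genes. The median log2 fold change was 0.07 for the members and -0.01 for all genes, and the median absolute change was 0.45 and 0.21. The division into demethylases and hydroxylases was described with these values known, so the split by role is a description.

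**Figure D1:**
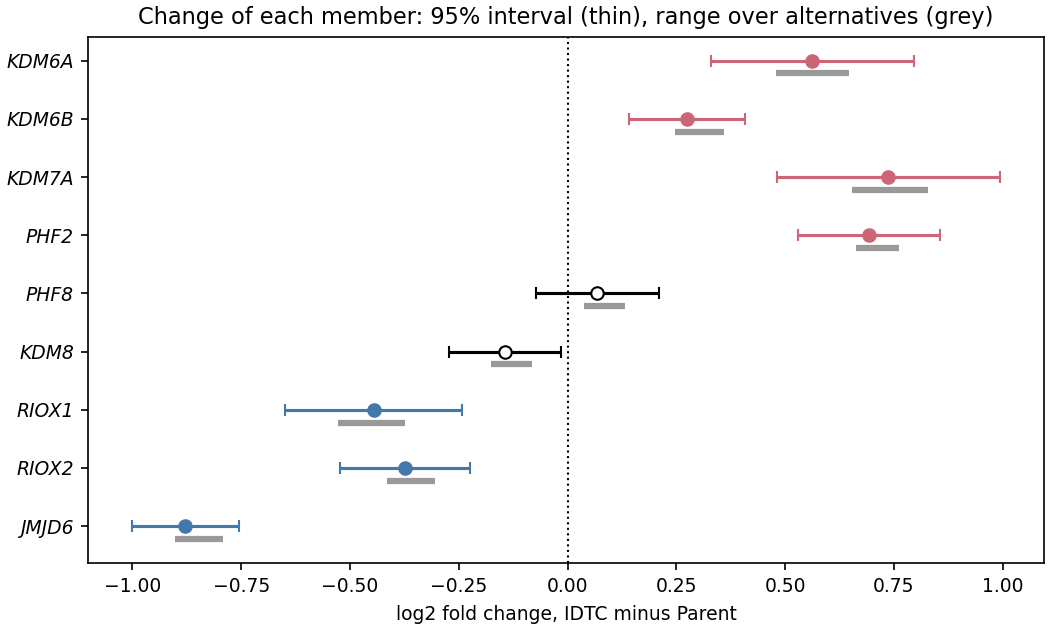
Log2 fold change (IDTC minus Parent, x axis) of each of the 9 genes (y axis). Circles are the limma estimates and thin bars their 95% confidence intervals, filled where called (red higher, blue lower) and open where not. Thick grey bars span the 14 alternative settings. KDM7A (0.74) lies farthest to the right and JMJD6 (-0.88) farthest to the left.

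Over all genes, the correlation was r = 0.995 to 0.998 within a group and 0.953 to 0.957 between groups. Transcripts that report MAPK signalling, which mutant BRAF drives, were examined as a check of the treatment label. All 7 fell, from PHLDA1 (-0.87) to SPRY4 (-5.24), where 24.9% of all genes fell. The list was chosen with earlier results of these data known, so the check is not independent. Of 9 measured melanocyte lineage markers 7 rose and 1 fell, with list means of 9.91 to 9.98 in Parent and 11.00 to 11.14 in IDTC arrays. None of 6 keratinocyte and 4 endothelial markers was called, and no single one of these 10 had a mean above 7.19. The brightest of the 10 lay at percentile 52.9 of all genes by mean level, above KDM8 (47.0), so this level does not show absence. PECAM1, an endothelial marker, was lower after quantile normalization of all probe sets (-0.18, adjusted p = 0.036, limma). Of 7 fibroblast markers 2 fell, and of 5 leukocyte markers 1 rose (MS4A1, 0.37, a call lost under both quantile scalings) and 1 fell (LYZ, -3.03). The part of these shifts in the members' changes was not tested. In RNA from a whole culture, fewer cells with a transcript and less of it per cell cannot be told apart.

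The KDM6 pair acts on methylated lysine 27 of histone H3. KDM6A (UTX) is X-linked and works inside the KMT2C and KMT2D enhancer complexes, and KDM6B (JMJD3) is an inducible gene known from inflammatory signalling. KDM6A stood at 7.87, 7.67 and 7.69 in Parent replicates 1 to 3 and at 8.47, 8.31 and 8.14 in IDTC replicates 1 to 3, in log2 expression. Every IDTC array lay above every Parent array, and IDTC replicate 1 was the highest. The means were 7.74 ± 0.11 and 8.31 ± 0.17 (SD, n = 3 each), a 1.48-fold rise (adjusted p = 0.0024, limma). KDM6B stood at 8.28, 8.26 and 8.20 in Parent and at 8.58, 8.48 and 8.51 in IDTC arrays. The groups again did not overlap, and the spread within each was narrow. Its means were 8.25 ± 0.05 and 8.52 ± 0.05, a 1.21-fold rise (adjusted p = 0.0052, limma), the smallest change among the called members.

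The KDM7 group was split. KDM7A, which acts on dimethylated lysines 9 and 27 of histone H3, stood at 7.66, 7.34 and 7.51 in Parent and at 8.37, 8.29 and 8.06 in IDTC arrays. Its spread was among the widest of the members, at 7.50 ± 0.16 and 8.24 ± 0.16, yet the groups lay 0.40 apart at their nearest arrays. The rise was 1.67-fold (adjusted p = 9.7e-04, limma). PHF2, which demethylates lysine 9 together with the DNA-binding protein ARID5B, stood at 7.29, 7.30 and 7.48 in Parent and at 8.00, 8.09 and 8.06 in IDTC arrays. No array of one group reached the other. The means were 7.36 ± 0.11 and 8.05 ± 0.05, a 1.62-fold rise (adjusted p = 1.2e-04, limma).

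PHF8, the X-linked member of the KDM7 group, removes methyl groups from lysine 9 of histone H3 and lysine 20 of histone H4 and is mutated in a form of intellectual disability with cleft lip. It stood at 7.88, 7.77 and 7.85 in Parent and at 7.96, 7.90 and 7.84 in IDTC arrays. IDTC replicate 3 lay inside the Parent range, and PHF8 was the only member whose groups overlapped. The difference was 0.07 ± 0.06 with a 95% interval of -0.07 to 0.21 (adjusted p = 0.40, limma). A small rise is within that interval, and a change as large as that of PHF2 is outside it.

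**Figure D2:**
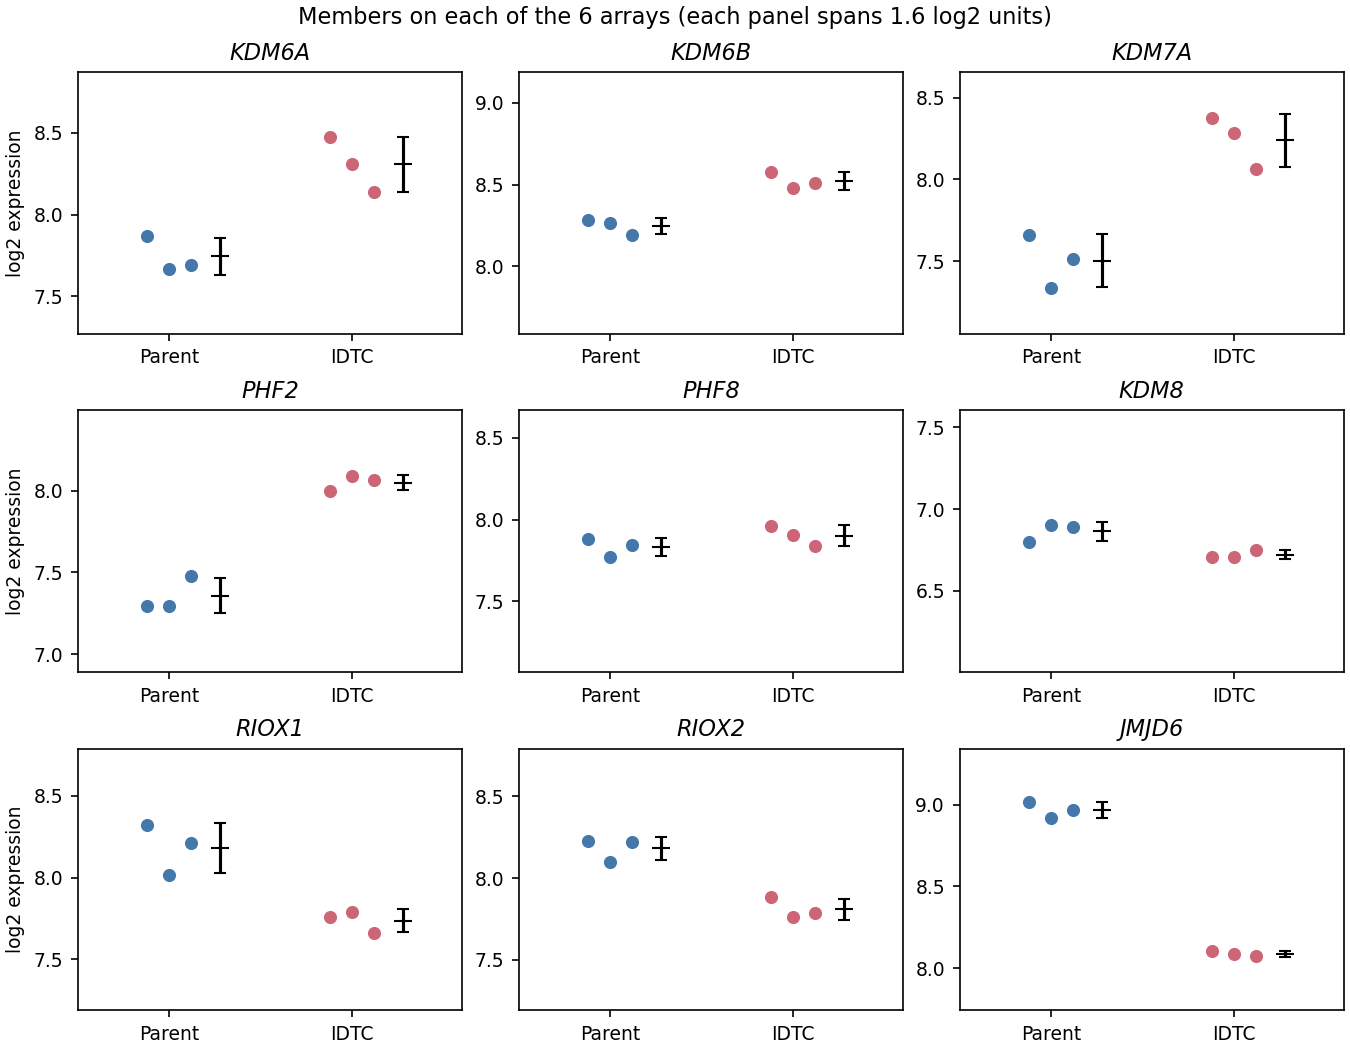
Log2 expression (y axis) of the 9 genes on each array, with Parent replicates 1 to 3 in blue and IDTC replicates 1 to 3 in red, from left to right. The bars beside the points are the mean and SD, and every panel spans the same number of log2 units. JMJD6 falls from 8.97 to 8.09 with little spread, and the PHF8 groups overlap.

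The relatives were set against each other on each array, which compares their changes and not their levels. The change of KDM6B was 0.29 log2 smaller than that of KDM6A (-0.29 ± 0.10, standard error, n = 3 per group). PHF8 changed by 0.63 less than PHF2 (-0.63 ± 0.09) and by 0.67 less than KDM7A (-0.67 ± 0.08). For these 3 pairs the per-array differences of the groups did not overlap, and the 2-sided exact permutation test gave p = 0.1, the smallest that 3 against 3 arrays allow (adjusted p = 0.17 over 5 pairs). PHF2 and KDM7A differed in their change by -0.04 ± 0.15 (exact permutation p = 0.9, adjusted 0.9) and RIOX1 and RIOX2 by -0.07 ± 0.07 (exact permutation p = 0.5, adjusted 0.63). This permutation test cannot reach the threshold with 3 against 3 arrays, so the pairs are given by the size of their difference and its error, without a call.

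**Figure D3:**
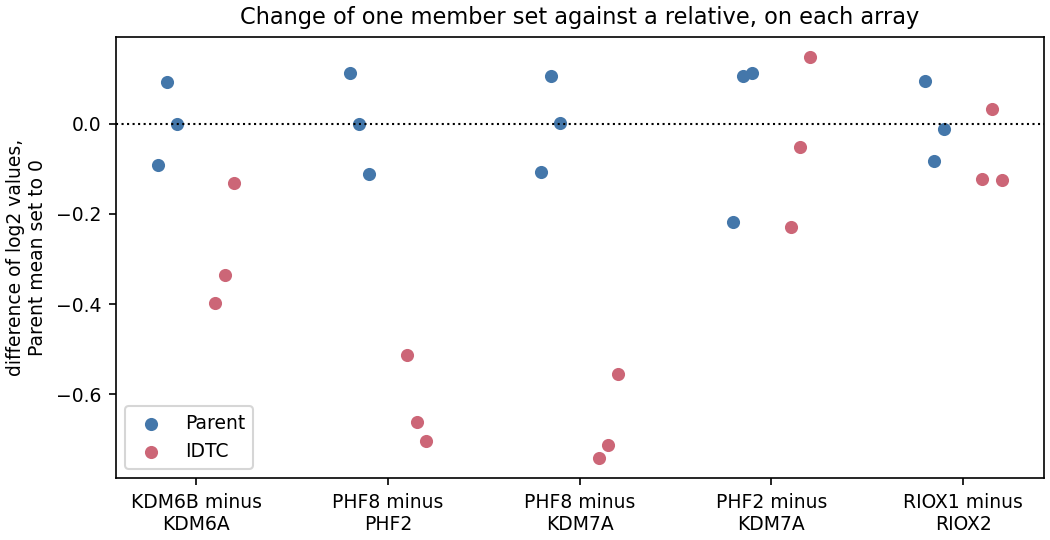
Difference of the log2 values of 2 related genes on each array (y axis), with the Parent mean of each pair (x axis) set to 0. Blue points are Parent arrays and red points IDTC arrays. The IDTC arrays lie below all Parent arrays for KDM6B minus KDM6A (mean -0.29), PHF8 minus PHF2 (-0.63) and PHF8 minus KDM7A (-0.67), and overlap with them for the other pairs.

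Among the hydroxylase members JMJD6 changed most. It hydroxylates lysines of the splicing factor U2AF2 and has been linked to release of paused RNA polymerase. JMJD6 stood at 9.01, 8.92 and 8.97 in Parent and at 8.11, 8.09 and 8.07 in IDTC arrays. The groups were 0.81 apart at their nearest arrays, the widest gap of any member. The means were 8.97 ± 0.05 and 8.09 ± 0.02, a 1.84-fold fall (adjusted p = 8.8e-06, limma).

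RIOX1 (NO66) and RIOX2 (MINA53) hydroxylate histidines of the ribosomal proteins RPL8 and RPL27A. RIOX1 stood at 8.32, 8.02 and 8.21 in Parent and at 7.76, 7.79 and 7.66 in IDTC arrays. Parent replicate 2 was the lowest of its group and still above every IDTC array. The means were 8.18 ± 0.15 and 7.74 ± 0.07, a 1.36-fold fall (adjusted p = 0.0039, limma). RIOX2 stood at 8.22, 8.10 and 8.22 in Parent and at 7.88, 7.76 and 7.78 in IDTC arrays. Its groups did not overlap either, and its means of 8.18 ± 0.07 and 7.81 ± 0.07 differed by 1.29-fold (adjusted p = 0.0020, limma).

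KDM8 (JMJD5), described as an arginine hydroxylase with RCCD1 among its substrates, stood at 6.80, 6.90 and 6.89 in Parent and at 6.70, 6.70 and 6.75 in IDTC arrays. The IDTC values lay just below the Parent values, and IDTC replicates 1 and 2 carried the identical number in the deposited table. The difference was -0.14 ± 0.05 with a 95% interval of -0.27 to -0.01, unadjusted p = 0.034 and adjusted p = 0.069 (limma). It passed the threshold after quantile normalization of all probe sets between the arrays (adjusted p = 0.037), without the dimmest 40% of genes (0.034) and without Parent replicate 1 (0.044). KDM8 was the only member with more than 1 such probe set. Its dimmer probe set had a mean of 4.89 ± 0.12 in Parent and 4.80 ± 0.29 in IDTC arrays and was not called (-0.09 ± 0.14, adjusted p = 0.64, limma over all probe sets with 1 symbol).

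Within the groups, 4 members shared one order of arrays. KDM6A, KDM7A and PHF8, and JMJD6, which fell, were each highest in replicate 1 and lowest in replicate 3 of the IDTC arrays, and each highest in replicate 1 and lowest in replicate 2 of the Parent arrays. The other 5 members did not have this order in both groups. Genes outside the members had it too, among them METTL23, which lies next to JMJD6. How many of all genes have this order was not counted, so it is not shown to be particular to the members. Each called member kept its direction and its call in all 14 alternative settings, which included 4 other scalings of the arrays and each array left out in turn.

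RefSeq promoter windows (GRCh38.p14) were found for 6 members by symbol, with 3 starts for PHF8, 2 for KDM6B and 1 each for KDM6A, KDM7A, PHF2 and KDM8. No window is shown for RIOX1, RIOX2 and JMJD6. The 250 bases before the start are printed for the demethylases that rose, 5′ to 3′ on the gene's strand, so that their windows can be compared. Capitals mark matches on either strand to the motifs searched: the E-box CACGTG, the AP-1 site TGANTCA, the cyclic AMP element TGACGTCA, the ETS site CCGGAAGT, the GC box GGGCGG, the box CCAAT, the E2F sites TTTCGCGC and TTTGGCGC, the YY1 site AANATGGC and TATAAA.
KDM6A, chrX:44872938-44873187, plus strand: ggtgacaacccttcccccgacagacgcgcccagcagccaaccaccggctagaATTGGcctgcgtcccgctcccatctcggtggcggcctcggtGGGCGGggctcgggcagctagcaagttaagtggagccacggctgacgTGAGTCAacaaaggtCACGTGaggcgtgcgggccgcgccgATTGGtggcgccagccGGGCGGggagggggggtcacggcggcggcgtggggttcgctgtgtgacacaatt
KDM6B, the upstream start, chr17:7833967-7834216, plus strand: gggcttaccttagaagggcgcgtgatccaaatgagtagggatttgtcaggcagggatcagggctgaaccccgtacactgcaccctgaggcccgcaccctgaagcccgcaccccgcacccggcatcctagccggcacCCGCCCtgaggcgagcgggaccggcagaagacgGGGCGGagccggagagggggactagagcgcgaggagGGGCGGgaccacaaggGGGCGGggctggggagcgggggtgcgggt
KDM7A, chr7:140176984-140177233, minus strand: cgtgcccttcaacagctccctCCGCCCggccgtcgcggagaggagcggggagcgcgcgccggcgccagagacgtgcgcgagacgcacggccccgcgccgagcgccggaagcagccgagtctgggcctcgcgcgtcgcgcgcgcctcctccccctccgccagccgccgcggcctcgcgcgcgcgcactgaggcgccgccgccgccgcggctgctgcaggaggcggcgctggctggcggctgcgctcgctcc
PHF2, chr9:93576334-93576583, plus strand: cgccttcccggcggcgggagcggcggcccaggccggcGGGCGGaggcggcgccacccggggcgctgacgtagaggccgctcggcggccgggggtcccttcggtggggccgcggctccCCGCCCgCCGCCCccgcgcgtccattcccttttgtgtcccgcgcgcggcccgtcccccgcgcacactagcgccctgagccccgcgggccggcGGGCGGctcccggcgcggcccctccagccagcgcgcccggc

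The KDM6A window held an E-box 95 to 90 bases before the start and an AP-1 match 110 to 104 bases before it, and none of the other 3 printed windows held either. An E-box was found in 6.34% and an AP-1 match in 6.57% of all 35116 windows of this length. GC boxes were present in each of the printed windows, with 2 in KDM6A, 4 in KDM6B, 1 in KDM7A and 4 in PHF2, and 42.6% of all windows held one. The downstream KDM6B window, which is not printed, held none, and members that were not called had GC boxes too, with 2 at the middle start of PHF8 and 1 in KDM8. The KDM6A window also held 2 CCAAT boxes, found in 32% of all windows (GC boxes and CCAAT boxes did not overlap here). The printed windows were GC-rich, at 69.2% for KDM6A, 70.4% for KDM6B, 81.6% for KDM7A and 84.8% for PHF2, where the median of all windows was 58%. By percentile of GC content, PHF2 lay at 99.6, KDM7A at 98.3, the printed KDM6B window at 81.1 and KDM6A at 78.3. A relation of GC content to the changes was not tested. The downstream KDM6B window had 50.4% (the 33.7th percentile), the PHF8 windows 43.2% to 66.8% and the KDM8 window 53.2%. PHF8, which was not called, had a cyclic AMP element 53 to 46 bases before its middle start (1.65% of all windows) and a YY1 match in the windows of its middle and its most upstream start (3.86% of all windows). A match describes letters in a window, and no binding was measured in these samples.

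Neighbouring genes were examined because the choice of members did not use position. Of 18 protein-coding neighbours in the annotation's order, 16 were measured, of which 4 rose, 3 fell and 9 were not called. Over all genes 46.6% were called, a share near that of the neighbours, with 21.7% higher and 24.9% lower. Under the other scalings 3 to 6 neighbours rose and 3 or 4 fell. CRYBG3 and METTL23 were called higher in 3 of 4 scalings and DIPK2B was called lower in 1. On the sides of KDM7A, which rose, PARP12 fell by 1.13 ± 0.08 and SLC37A3 fell by 1.01 ± 0.05. FAM120A, the neighbour of PHF2, fell by 0.42 ± 0.07. FAM120C rose by 0.66 ± 0.07 next to PHF8. MXRA7 rose by 0.28 ± 0.05 beside JMJD6, which fell. ACOT1 (0.28 ± 0.07) and ACOT2 (0.24 ± 0.07) rose on the sides of RIOX1. These thioesterase genes are close copies whose values are uncertain, and the call of ACOT2 was lost after re-centring on the medians of all probe sets (adjusted p = 0.077).

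The complexes in which KDM6A works were described from a list of 9 genes, with 3 higher, 4 lower and 2 not called (median -0.14), with the same counts under all 4 other scalings. KMT2C, a methyltransferase of lysine 4 that carries KDM6A to enhancers, rose from 9.40 ± 0.10 to 9.96 ± 0.15. Its paralog KMT2D was not called, at 7.82 ± 0.12 and 7.68 ± 0.11 (adjusted p = 0.23). Of the core subunits shared by all such methyltransferases, ASH2L rose by 0.59 ± 0.05 and WDR5, the scaffold that binds histone H3, fell by 1.08 ± 0.05. The core subunit DPY30 fell by 0.48 ± 0.06, and RBBP5 was not called (-0.006 ± 0.06). PAXIP1, found with KDM6A in these complexes, fell by 0.89 ± 0.06. The opposing PRC2 list of 11 genes had 3 higher, 6 lower and 2 not called (median -0.21). Under the other scalings 3 or 4 were higher and 5 lower, with medians of -0.23 to -0.09, and SUZ12, a core subunit, lost its call in all 4 (-0.21, adjusted p = 0.048, and 0.073 to 0.25 there). Its catalytic subunits went opposite ways. EZH2, the form of dividing cells, fell from 9.63 ± 0.02 to 8.73 ± 0.08, and EZH1, the form of resting cells, rose from 7.32 ± 0.03 to 8.39 ± 0.11. The accessory factor gene PHF19, whose protein binds methylated lysine 36 of histone H3, fell by 0.84 ± 0.05.

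Methyltransferases of histone lysines on which the KDM7 group acts were split as well. They were listed by lysine, whatever the number of methyl groups they add. The list therefore does not single out the enzymes that make the marks removed by the KDM7 group. Of 9 such genes 4 were higher, 3 lower and 2 not called (median -0.08, and -0.10 to -0.02 under the other scalings). The call of EHMT2 (0.19) was lost after re-centring on the medians of all probe sets (adjusted p = 0.079). SETDB2 rose by 1.38 ± 0.12, while SUV39H2 fell by 1.28 ± 0.09 and SUV39H1 fell by 0.64 ± 0.08. Among 6 measured partners and substrates, 2 were higher, 1 lower and 3 not called (median -0.03, and -0.05 to 0.03 under the other scalings). ARID5B, the DNA-binding partner of PHF2, stood at 8.34, 8.20 and 8.29 in Parent and at 10.10, 10.17 and 10.04 in IDTC arrays. The groups were far apart, and the rise of 1.82 ± 0.06 (3.54-fold, adjusted p = 9.7e-07, limma) was larger than that of any of the 9 members. U2AF2, the JMJD6 substrate, fell by 0.61 ± 0.06. Of the ribosomal substrates, RPL8 was not called (0.03 ± 0.05), and RPL27A rose by 0.19 ± 0.05, a call lost after re-centring on the medians of all probe sets (adjusted p = 0.063). RCCD1, the partner of KDM8, was not called (-0.10 ± 0.08).

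**Figure D4:**
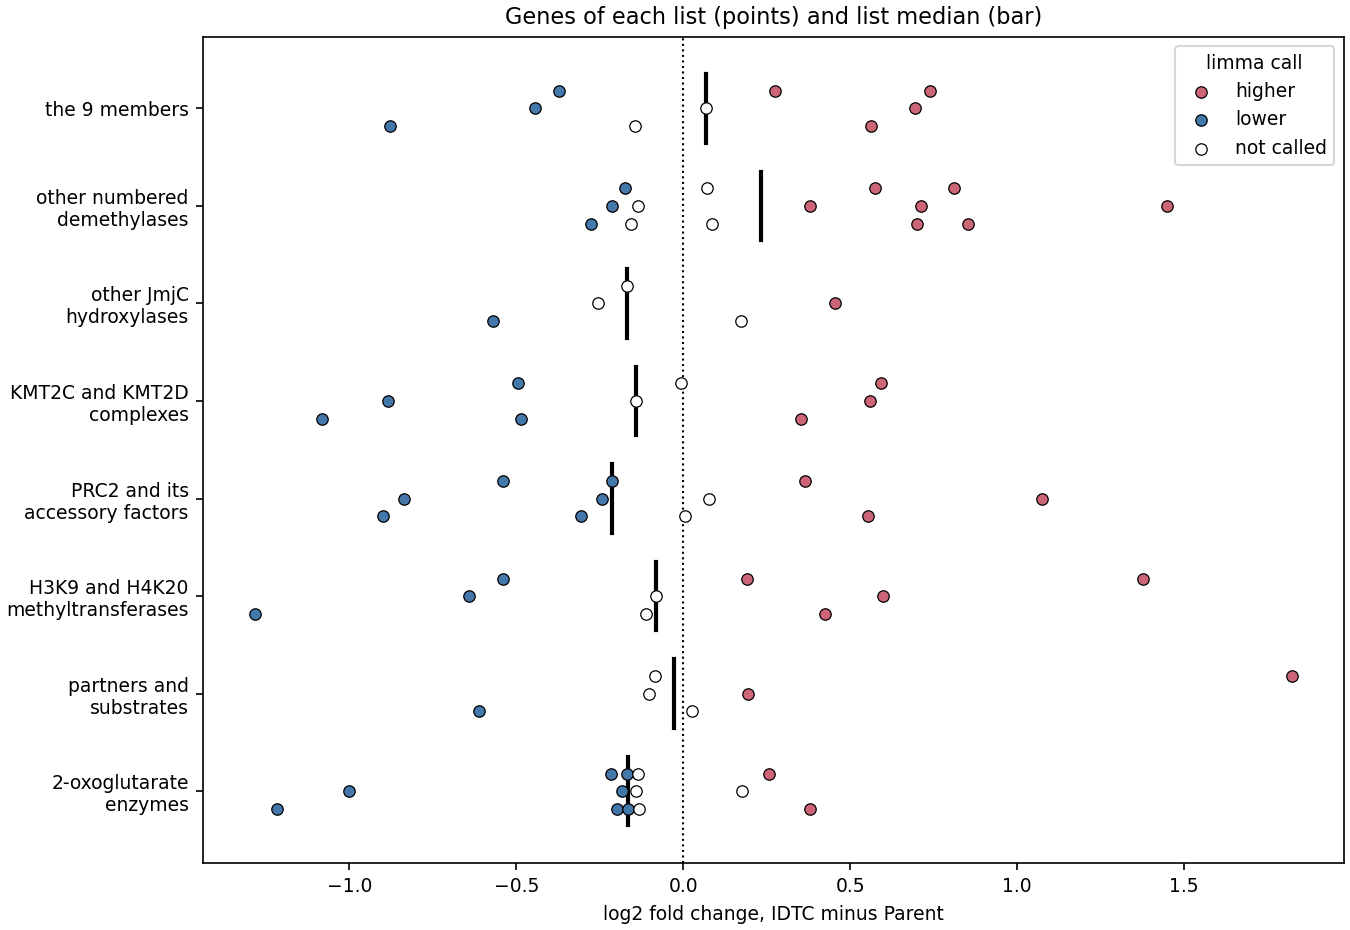
Log2 fold change (IDTC minus Parent, x axis) of every measured gene of the members and the 7 pathway lists (y axis), red where higher, blue where lower and open where not called by limma, with the list median as a black bar. Cell type markers and MAPK genes are not plotted. Of the genes plotted ARID5B (1.82) is farthest to the right, and SUV39H2 (-1.28) and IDH3A (-1.22) are farthest to the left.

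Related genes gave a background for the family. Of 14 numbered demethylases outside the KDM6 and KDM7 groups, 7 were higher, 3 lower and 4 not called (median 0.23), with KDM4A (1.45 ± 0.06), KDM3B (0.85 ± 0.09) and KDM5A (0.81 ± 0.08) highest. This list was chosen with its values known, and under the other scalings 7 or 8 of its genes rose and 1 to 3 fell. KDM1A and KDM1B in it are flavin-dependent amine oxidases without a JmjC domain, and the 12 JmjC genes alone had 6 higher, 3 lower and 3 not called (median 0.23). Of 5 measured JmjC hydroxylases outside the members, 1 was higher, 1 lower and 3 not called (median -0.17), and 1 or 2 were higher under the other scalings. JMJD4 fell by 0.57 ± 0.05, and JMJD8 rose by 0.45 ± 0.05. Of 13 measured enzymes that make or use 2-oxoglutarate, the co-substrate of these enzymes, or its inhibitory relatives succinate and fumarate, 2 were higher, 7 lower and 4 not called (median -0.16). IDH3A, a subunit of a mitochondrial isocitrate dehydrogenase, fell by 1.22 ± 0.05, and the aspartate aminotransferase gene GOT2 fell by 1.00 ± 0.05. The cytosolic isocitrate dehydrogenase gene IDH1 rose by 0.38 ± 0.05, and IDH2, which encodes another mitochondrial isocitrate dehydrogenase, rose by 0.26 ± 0.07. The number of genes of this list that fell was 2 to 4 under the other scalings.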

How the data were processed

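Values were log2 expression per probe set, normalized by the authors before they were deposited. Affymetrix Expression Console, RMA and Partek 6.6 are named in the submitters' processing notes, without role or order (genome build: not given in the sources used here). Without detection calls for the 33297 probe sets, signal cannot be told from background, and the number of arrays limits the precision. All members lay above the dimmest 40% of genes by mean level.

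The platform annotation gave 1 symbol to 19460 probe sets and several to 1754, and did not list 12083. The 19460 came to 18417 genes. The fit used limma 3.58.1 (R 4.3.3) with lmFit and eBayes on the 6 arrays, without covariates or a level filter, with 2-sided tests, and was tested on simulated data. Members, lists and motifs were chosen with earlier results of these data or the sequences known. Named were all members, up to 3 called genes with the largest change per list, called neighbours whose groups did not overlap, and ARID5B, RCCD1, RPL8, RPL27A, EZH2, KMT2C and KMT2D. MS4A1, LYZ, PECAM1, PHLDA1, SPRY4, DPY30, RBBP5, SUZ12, EHMT2, IDH2, KDM1A, KDM1B, CRYBG3, METTL23 and DIPK2B were named outside this rule. JMJD7, GLUD1, SDHB, FH, DCT and some other list genes were not analysed here. Alternatives were 4 scalings, the dimmest genes left out, the mean of a gene's probe sets, another variance model, the sample number as a block and each array left out.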

Additional observations from a re-analysis of the deposited data

How the results depend on the processing

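The 7 called members kept their direction and side of the threshold under all 14 alternatives, of which the 2 scalings over the named genes alone were added after seeing the data. The count of all called genes was 8588 and ranged from 7375 to 9077, that of members called higher was 4 throughout and that of members called lower 3 or 4. KDM8 gained a call in 3 of 14 alternatives, and PHF8 in none (adjusted p = 0.052 to 0.71). With each array left out in turn, the change of PHF2 minus that of KDM7A ranged from -0.153 to 0.0484, so its sign is not settled. The share of called genes that were higher was 46.5%, and 43.9% to 54.7% under the other scalings, among which the largest shift of the median log2 change of all genes was 0.063. Same-numbered samples of the groups deviated together at r = 0.32, -0.19 and 0.26, and differently numbered ones at r = -0.47 to 0.37. These few values cannot tell whether the titles' numbers pair the samples. With the replicate block 8855 genes were called, 4 members higher and 3 lower, and no member's call changed. The 9 members are few, and a difference of 0.14, as for KDM8, is at the limit of what 3 arrays per group resolve.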

Other observations

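Exactly equal values recurred between arrays of the deposited table. Of 18417 genes, 1740 (9.45%) carried an identical value on 2 or more Parent arrays and 1216 (6.6%) on 2 or more IDTC arrays, and 2774 (15.1%) had such a tie in either group. Arrays of one group shared the identical value for 2.24% to 4.38% of genes, and arrays of different groups for 2.02% to 3.01%. Among the 9 members KDM8 was the only one with a tie. AEBP2, an accessory factor of PRC2 chosen here after its values were seen, carried the value 9.14 on 5 of 6 arrays and was not called. Genes with a tie were called in 26.0% of cases and genes without one in 50.3%. A tied pair narrows the measured spread of its group, and its part in the calls was not tested.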
